A study of Homo sapiens with 96 samples.

Results

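This report describes 10 target genes of the transcription factor p53, CDKN1A, SESN1, ZMAT3, MDM2, BBC3, BAX, FAS, TP53I3, FDXR and GDF15, in A549 human lung adenocarcinoma cells exposed to extracts or single ingredients of Paeoniae Radix, peony root. The genes were taken by symbol from the 60675 genes of the count table. The rule itself uses no measured value, though the genes were chosen with earlier results of these data known. Transcript levels were measured by RNA sequencing of total RNA in 96 libraries, with 3 libraries in each of 32 groups. In the first batch, cells received an ethanol extract or a water extract at 20, 100 or 500 µg/mL, or vehicle (7 groups, 21 libraries). In the second batch, cells received oleanolic acid, hederagenin, paeoniflorin, albiflorin, gallic acid, benzoic acid, catechin or paeonol at 0.4, 2 or 10 µM, or a vehicle of its own (25 groups, 75 libraries). The sources used here give neither the kind of vehicle nor the length of exposure. The groups are all of the same cell line, with no change of genotype.

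p53 is a transcription factor that is kept low in unstressed cells by the ubiquitin ligase MDM2 and is stabilised by DNA damage and other stresses. It then binds paired half-sites in or near its targets, among them genes that halt the cell cycle, trigger apoptosis, repair DNA or adjust metabolism. A549 cells have lost CDKN2A, which encodes the MDM2 inhibitor ARF.

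The promoters of the 10 genes are shown first because binding of p53 close to the start site is one of the features by which its targets are known. RefSeq (build GRCh38.p14) lists 19 transcription starts for them, and each window of 300 bases ran from 250 bases before a start to 50 bases after it. The p53 half-site consensus, a motif of 10 bases that is its own reverse complement, was found in 2329 of 35116 RefSeq promoters (6.63%) and in windows of 3 of the 10 genes, FAS, SESN1 and FDXR. A pair of half-sites 0 to 13 bases apart was found in 10 of the 35116 promoters (0.0285%) and in 0 of the 10 genes. The letters CATG were present in 54.9% of promoters and in 5 of the 10 genes (MDM2, FAS, GDF15, SESN1 and ZMAT3), and TATAAA in 11.5% of promoters and in 1 of the 10 genes, GDF15, with both strands searched. The percentages count single promoters, whereas a gene was counted if any of its windows matched. With 19 windows for 10 genes, the gene counts run higher than a count by window and are not directly comparable with the percentages. These matches describe the sequence only. Exact matches to the consensus were counted, so a window without a match may still hold a site that departs from it. Such a window also says nothing on binding elsewhere. Below, the half-site is in capitals with 10 bases on each side, read 5′ to 3′ on the strand of the gene.
FAS: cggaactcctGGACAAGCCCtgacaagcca
SESN1: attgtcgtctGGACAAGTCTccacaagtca
FDXR: gggcaggagcGGGCTTGCCCtgcggagcag
The FAS stretch is at chr10:88991299-88991328 on the plus strand, 132 to 103 bases before one of its RefSeq starts. The annotation also places exons of FAS and, on the other strand, of ACTA2 there. The SESN1 stretch is at chr6:109009018-109009047 on the minus strand and in no annotated exon, with the half-site starting 49 bases before the start. The FDXR stretch is at chr17:74872986-74873015 on the minus strand, in the first exon, with the half-site starting 11 bases before the RefSeq start.
BBC3 and BAX are shown beside them because these partners in apoptosis moved in opposite directions under the ethanol extract. The bases are those of each RefSeq window that lie before the start and outside annotated exons, and they hold no exact match to the half-site consensus.
BBC3: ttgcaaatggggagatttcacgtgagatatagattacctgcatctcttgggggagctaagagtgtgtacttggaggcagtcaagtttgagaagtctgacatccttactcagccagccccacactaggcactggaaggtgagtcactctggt
BAX: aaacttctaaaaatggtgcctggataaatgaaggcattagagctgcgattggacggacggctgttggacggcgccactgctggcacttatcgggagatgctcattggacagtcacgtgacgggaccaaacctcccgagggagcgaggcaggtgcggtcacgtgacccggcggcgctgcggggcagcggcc
The BBC3 stretch of 151 bases is at chr19:47232767-47232917 on the minus strand, and the BAX stretch of 190 bases is at chr19:48954625-48954814 on the plus strand.

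In the GENCODE v29 annotation (GRCh38), CDKN1A lies at chr6:36676460-36687339, SESN1 at chr6:108986437-109094819, ZMAT3 at chr3:179017223-179072279, MDM2 at chr12:68808176-68850686 and FAS at chr10:88990582-89015785. GDF15 lies at chr19:18374731-18389176, TP53I3 at chr2:24077433-24085861 and FDXR at chr17:74862497-74873031, while BBC3 (chr19:47220822-47232766) and BAX (chr19:48954815-48961798) share a chromosome with GDF15. Genes on the opposite strand overlap MDM2, FAS and TP53I3, and MDM2 also overlaps a pseudogene with a median of 100 counts, against 2690 counts for MDM2 itself. ACTA2, on the strand opposite FAS, had a median of 260 counts, more than the 188.5 counts of FAS itself. The sources used here do not state whether strand entered the counts, so the levels of MDM2, FAS and TP53I3 are uncertain to that extent.

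Total counts per library were 17.9 to 28.1 M in the first batch (median 23.2) and 15.7 to 35.6 M in the second (median 23.7). Of 8 epithelial and lung cancer markers of A549, 6 were at 305 CPM (counts scaled to the normalised library size) or more in every library, among them KRT18 at 1233 to 5669 CPM, while CDH1 was at 22.9 to 46.7 CPM and EPCAM at 0.785 to 13.5 CPM. CDKN2A was counted in 3 of 96 libraries with at most 2 counts. Of 8 blood and endothelial markers, 7 did not reach 1 CPM in any library, and the macrophage gene CD68 was at 1.304 to 21.5 CPM. Of the 9 fibroblast markers DCN, POSTN and PDGFRB did not reach 1 CPM, whereas COL5A1 was at 86.5 to 293 CPM, THY1 at 5.63 to 12.6 CPM and COL1A1 at 23.7 CPM or more in every library. Libraries stood apart in the second batch in 2 ways. In 18 ingredient libraries, mitochondrially encoded genes took under 5.03% of counts, which is under 50% of the batch median, against 11.6 to 12.1% in vehicle. In 4 libraries (gallic acid at 0.4 and 2 µM, replicate 1 each, and catechin at 2 and 10 µM, replicate 2 each), the fibroblast collagen gene COL1A2 was at 485 to 606 CPM, against at most 0.843 CPM elsewhere, and the 9 fibroblast markers summed to 1072 to 1324 CPM, against 134 to 460 CPM in the other libraries of the batch. Values of the 10 genes in the second batch are therefore also given without the low-share libraries, and counts without the COL1A2-high ones.

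The question of the first batch was whether the whole extracts changed the p53 targets and at which dose. Of the 10 genes, 9 rose and 1, BAX, fell when ethanol extract at 500 µg/mL was set against vehicle, at an adjusted p under 0.05 in edgeR's quasi-likelihood test with Benjamini-Hochberg adjustment over all 16854 genes tested. That dose changed much of the transcriptome: 34.7% of the genes tested rose and 34.4% fell. The median log2 change was 0.88 over the 10 genes, against 0.001 over all genes tested. Scaling between libraries itself places the typical gene near no change, so the latter value is not an independent background. Small changes, such as that of BAX, rest on this scaling. With 3 libraries against 3, the ethanol extract libraries lay beyond all vehicle libraries for each of the 10 genes, above for 9 and below for 1, against 35.9% of all genes above and 35.4% below. In bulk RNA, fewer cells that express a gene and less RNA per cell cannot be told apart, and since the labels do not say that the 3 libraries of a group came from separate cultures, p-values reflect only library-to-library spread, possibly technical. Vehicle libraries of this batch carry label numbers with a first digit that no extract library shares. Differences from vehicle and differences that go with that digit therefore cannot be told apart in this batch.

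**Figure D1:**
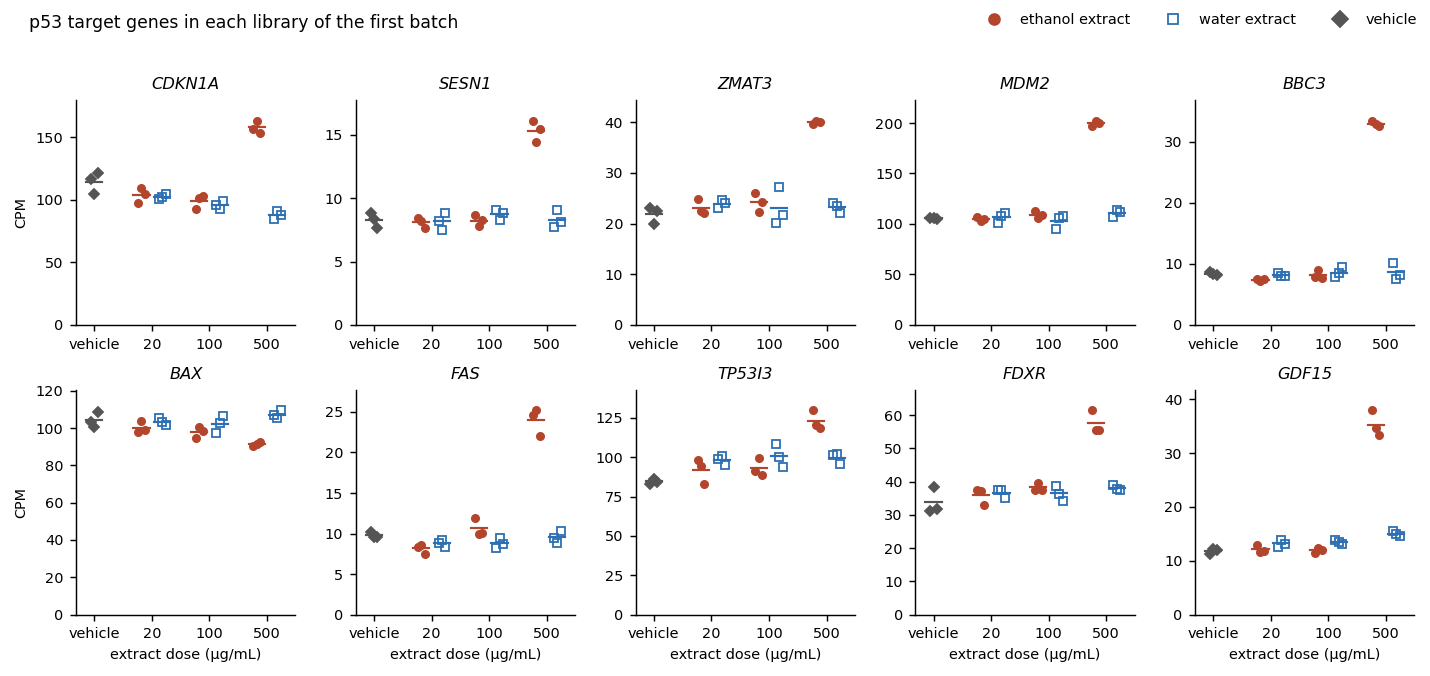
CPM of the 10 p53 target genes in each of the 21 libraries of the first batch (vertical axis, CPM; horizontal axis, vehicle and extract dose in µg/mL), with filled circles for ethanol extract, open squares for water extract, grey diamonds for vehicle and a line at each group mean of 3 libraries. The 3 ethanol extract libraries at 500 µg/mL stand above every other library for 9 genes and below every other library for BAX, while the 20 and 100 µg/mL libraries lie near vehicle.

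Among the genes that restrain growth, CDKN1A, which encodes the cyclin-dependent kinase inhibitor p21, had 157, 163 and 154 CPM with ethanol extract at 500 µg/mL, against 116, 105 and 122 CPM with vehicle. The log2 change was 0.47 ± 0.05 (SE; edgeR adjusted p = 2.75e-08). SESN1, a sestrin that restrains mTORC1 signalling, had 16.1, 14.4 and 15.4 CPM, against 8.87, 8.38 and 7.63 CPM with vehicle, a log2 change of 0.88 ± 0.08 (SE; edgeR adjusted p = 7.72e-10). ZMAT3, an RNA-binding zinc finger protein that acts on splicing, had 39.7, 40.3 and 40.1 CPM, against 23.1, 19.9 and 22.5 CPM with vehicle, a log2 change of 0.87 ± 0.08 (SE; edgeR adjusted p = 8.9e-10). For these 3 genes no treated library overlapped a vehicle library, and SESN1 and ZMAT3 rose more than CDKN1A on the log2 scale.

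MDM2, which closes a negative feedback loop by marking p53 for degradation, had 197, 202 and 200 CPM with ethanol extract at 500 µg/mL, against 106, 106 and 105 CPM with vehicle. Its log2 change was 0.92 ± 0.04 (SE; edgeR adjusted p = 6.48e-15), a rise of 1.89-fold. The libraries of each group lay close together and far from the other group. MDM4, the MDM2 relative that blocks p53's activation domain, averaged 35.7 CPM with ethanol extract at 500 µg/mL and 33.4 CPM with vehicle and did not pass the test, and CDKN2A was at 0 in both groups.

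The apoptosis genes diverged. BBC3, which encodes the BH3-only protein PUMA, showed the largest rise of the 10, with 33.4, 32.9 and 32.6 CPM with ethanol extract at 500 µg/mL, against 8.60, 8.33 and 8.23 CPM with vehicle. This was 3.93-fold, or 1.97 ± 0.08 on the log2 scale (SE; edgeR adjusted p = 5.46e-16). FAS, the death receptor at the cell surface, had 24.6, 25.2 and 22.1 CPM, against 10.2, 9.63 and 9.51 CPM with vehicle, a log2 change of 1.29 ± 0.08 (SE; edgeR adjusted p = 5.68e-13). BAX, which forms pores in the outer mitochondrial membrane, instead had 90.4, 91.3 and 92.4 CPM, against 104, 101 and 109 CPM with vehicle. It fell by 0.19 ± 0.04 on the log2 scale (SE; edgeR adjusted p = 1.51e-04), and its ethanol extract libraries were the lowest 3 of the batch.

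Of the metabolic and secreted targets, GDF15, a secreted stress cytokine of the TGF-β superfamily, had 37.96, 34.7 and 33.4 CPM with ethanol extract at 500 µg/mL, against 11.3, 12.2 and 11.95 CPM with vehicle. The log2 change was 1.58 ± 0.06 (SE; edgeR adjusted p = 1.78e-16), and no treated library came near vehicle. FDXR, the ferredoxin reductase of mitochondrial electron transfer, had 61.5, 55.7 and 55.6 CPM, against 31.2, 38.5 and 31.9 CPM with vehicle, a log2 change of 0.77 ± 0.07 (SE; edgeR adjusted p = 3.79e-10). TP53I3, a quinone oxidoreductase-like protein, had 130, 121 and 118 CPM, against 83.1, 86.2 and 84.5 CPM with vehicle, a log2 change of 0.54 ± 0.06 (SE; edgeR adjusted p = 1.99e-08). Vehicle replicate 2 was the highest of the vehicle libraries for FDXR and still lay below each ethanol extract library.

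The rise was seen at the top dose of the ethanol extract and not along the dose range. At 20 µg/mL 0 of 10 genes passed the test (background 7.45% of genes called; 0 of 10 with DESeq2 as well), and at 100 µg/mL 1 of 10 did (background 17.5%). That gene, CDKN1A, went the other way there: it had 92.9, 102 and 103 CPM with ethanol extract at 100 µg/mL, against 116, 105 and 122 CPM with vehicle, and fell by 0.20 ± 0.05 on the log2 scale (SE; edgeR adjusted p = 0.00942). Without replicate 1 of the extract group or replicate 3 of vehicle, the adjusted p was 0.068 and 0.0644. Set against the lower doses without the vehicle libraries, ethanol extract at 500 µg/mL raised 9 genes and lowered BAX, both against 20 µg/mL (background 34% higher and 33.5% lower) and against 100 µg/mL (32.7% and 33.2%). Against 100 µg/mL the log2 changes ran from 0.40 for TP53I3 to 2.02 for BBC3 among the genes that rose, with 0.67 for CDKN1A, and BAX changed by -0.10. The BAX difference lost its call in 4 of the alternatives that leave out 1 library, namely replicate 1 or 2 at 500 µg/mL (adjusted p = 0.0741 and 0.0569) and replicate 2 or 3 at 100 µg/mL (adjusted p = 0.109 and 0.0556).

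With water extract the targets changed little and CDKN1A fell. At 500 µg/mL 3 of 10 genes passed the test, 2 higher and 1 lower, where 21.1% of all genes tested did (9.7% higher, 11.4% lower). CDKN1A had 84.4, 90.7 and 88.3 CPM, against 116, 105 and 122 CPM with vehicle, and fell by 0.38 ± 0.05 on the log2 scale (SE; edgeR adjusted p = 2.94e-05). GDF15 had 15.5, 14.99 and 14.7 CPM, against 11.3, 12.2 and 11.95 CPM with vehicle, a log2 change of 0.35 ± 0.07 (SE; edgeR adjusted p = 7.01e-04). TP53I3 had 101, 102 and 95.9 CPM, against 83.1, 86.2 and 84.5 CPM with vehicle, a log2 change of 0.24 ± 0.06 (SE; edgeR adjusted p = 0.00565). None of these 3 genes had a water extract library within the range of vehicle. The other 7 had log2 changes from -0.05 (FAS) to 0.17 (FDXR), and FDXR (edgeR adjusted p = 0.0801) passed the test without vehicle replicate 2 (log2 change 0.27, adjusted p = 0.00409), with a replicate block (0.0375) and without the filter on low counts (0.0286).

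CDKN1A and TP53I3 already differed from vehicle at lower doses of the water extract. Over both extracts, TP53I3 was higher than vehicle in 6 of 6 groups and CDKN1A lower in 5 of 6. Such shared differences cannot be told apart from an offset of the vehicle libraries, whose label numbers start with a digit of their own. CDKN1A averaged 114 ± 8.6 CPM with vehicle and 102 ± 1.9, 95.9 ± 3.5 and 87.8 ± 3.2 CPM at 20, 100 and 500 µg/mL (SD, n = 3 each), with edgeR adjusted p = 0.0618 at 20 and 0.00346 at 100 µg/mL. The 500 µg/mL group was below the 20 µg/mL group, by 0.22 on the log2 scale (edgeR adjusted p = 0.0278; background 2.05%), a call lost without any single library of either group other than replicate 2 at 500 µg/mL (adjusted p between 0.0534 and 0.146). TP53I3 averaged 84.6 ± 1.5 CPM with vehicle and 98.5 ± 3.0, 101 ± 7.1 and 99.8 ± 3.5 CPM at 20, 100 and 500 µg/mL (SD, n = 3 each), a step at the lowest dose without further rise. Its edgeR adjusted p was 0.0231 at 20 µg/mL (background 9.51%) and 0.00766 at 100 µg/mL (background 12.6%). The call at 100 µg/mL was lost without replicate 1 of that group (0.0563), and the call at 20 µg/mL without replicate 1 or 2 of the extract group (0.0772 and 0.095) or replicate 1 or 3 of vehicle (0.0776 and 0.0754). GDF15 averaged 11.8 ± 0.5 CPM with vehicle and 13.2 ± 0.6, 13.5 ± 0.5 and 15.1 ± 0.4 CPM at 20, 100 and 500 µg/mL (SD, n = 3 each), and passed the test at 500 µg/mL.

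**Figure D2:**
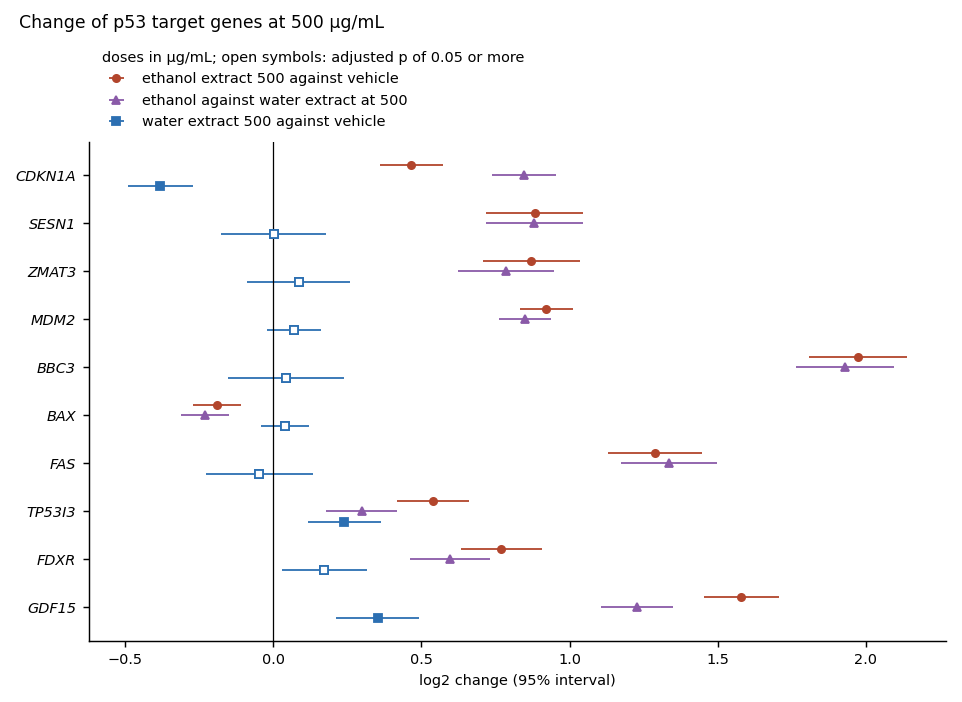
Log2 change with its 95% interval (horizontal axis) of the 10 p53 target genes at 500 µg/mL, for ethanol extract against vehicle (circles), ethanol against water extract (triangles) and water extract against vehicle (squares); open symbols mark an adjusted p of 0.05 or more. BBC3 lies farthest to the right at 1.97 for ethanol extract against vehicle, BAX lies left of 0 in both ethanol extract comparisons, and CDKN1A lies left of 0 for the water extract at -0.38.

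At matched dose, the extracts differed at 500 µg/mL and not detectably below. Against water extract at 500 µg/mL, ethanol extract had higher levels of 9 genes and a lower level of BAX (background 32.7% higher and 33.3% lower), with log2 differences of 1.93 ± 0.08 for BBC3, 1.34 ± 0.08 for FAS, 1.23 ± 0.06 for GDF15, 0.85 ± 0.05 for CDKN1A and -0.23 ± 0.04 for BAX (SE; edgeR adjusted p between 8.55e-16 and 1.58e-05). The smallest rise was that of TP53I3, at 0.30 ± 0.06 (SE; edgeR adjusted p = 8.19e-05), a gene that water extract had also raised. At 100 µg/mL 0 of 10 genes passed the test (background 1.77%), with log2 differences from -0.17 for GDF15 to 0.26 for FAS. At 20 µg/mL edgeR called 0 genes of the whole table (background 0%), where 735 had an unadjusted p under 0.05. Mitochondrially encoded genes took 11.6 to 15.3% of counts in the treated libraries of this batch and 13.9 to 18.5% in the vehicle ones. Their 13 genes fell against vehicle in 12 cases with either extract at 500 µg/mL, whereas between the extracts 1 was higher, 2 were lower and 10 did not pass the test, and the 10 target genes were called the same way with these genes left out before scaling.

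Other genes of the pathway were read from lists of known p53 targets, p53 regulators, cell cycle genes and stress genes. Of 35 other p53 targets, 28 rose, 5 fell and 2 did not pass the test at 500 µg/mL of ethanol extract against vehicle, with a median log2 change of 0.75, against the 34.7% and 34.4% of all genes that rose and fell there. SUSD6 averaged 36.1 CPM with ethanol extract and 12.8 CPM with vehicle (log2 change 1.50), DRAM1, which promotes autophagy, 63.7 and 24.7 CPM (1.36), PERP, a membrane protein of apoptosis, 234 and 103 CPM (1.18), and TP53INP1 29.8 and 13.2 CPM (1.18). With water extract at the same dose 9 of the 35 rose, 2 fell and 24 did not pass the test (median 0.08; 9.7% and 11.4% of all genes), and the named ones changed less, with 0.48 for SPATA18, 0.33 for KITLG, 0.32 for DRAM1 and 0.24 for PERP. Between the extracts at 500 µg/mL, 26 were higher with ethanol extract and 5 lower, with log2 differences of 1.44 for GADD45A, 1.40 for SUSD6, 1.11 for the p53 phosphatase gene PPM1D and 1.04 for DRAM1. At 100 µg/mL, 5 rose and 3 fell with ethanol extract and 4 rose and 2 fell with water extract, of 35 each, where 17.5% and 12.6% of all genes were called.

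Cell cycle genes that p53 represses through p21 and the DREAM complex went down at the top dose of ethanol extract: 17 of 20 fell, 2 rose and 1 did not pass the test, with a median log2 change of -0.82. The spindle checkpoint kinase BUB1 averaged 20.3 CPM with ethanol extract and 112.5 CPM with vehicle (log2 change -2.47), BUB1B 14.8 and 63.3 CPM (-2.10), the mitotic kinase AURKA 41.9 and 152 CPM (-1.86) and the mitotic cyclin CCNB1 46.7 and 161 CPM (-1.79). The series is named after the pathway of Aurora B, a mitotic kinase, so this list is not independent evidence of its direction. With water extract at 500 µg/mL, 9 of 20 fell and 11 did not pass the test (median -0.09, with 11.4% of all genes lower), while CDKN1A was lower as well. PLK1 changed by -0.33, CKS1B by -0.29, AURKA by -0.23 and CCNA2 by -0.22. Of 18 regulators of p53 that could be tested, 6 rose and 8 fell with ethanol extract at 500 µg/mL, shares near those of all genes (34.7% and 34.4%). The DNA damage kinases ATR and ATM were among those that fell, with 14.3 CPM against 49.6 CPM (-1.80) and 29.1 CPM against 58.5 CPM (-1.004), as was TP63 (-1.26), whereas the coactivator CREBBP rose (0.83). With water extract, 4 rose and 4 fell (9.7% and 11.4% of all genes), with HIPK2 at 0.34, ATM at 0.32, ATR at 0.25 and CHEK2 at -0.25.

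Genes of the integrated stress response, which is run by the factor ATF4 and is also known to raise GDF15, moved beside the p53 targets. Of 19, 14 rose and 2 fell with ethanol extract at 500 µg/mL (median log2 change 0.78, against 34.7% and 34.4% of all genes), led by STC2 at 164 CPM with ethanol extract and 15.1 CPM with vehicle (3.45), TRIB3 at 159 and 38.7 CPM (2.04), DDIT3 at 17.2 and 5.59 CPM (1.62) and NUPR1 at 27.3 and 8.95 CPM (1.61). With water extract at 500 µg/mL 3 rose and 4 fell (9.7% and 11.4% of all genes), among them SLC7A11 (0.43), PHGDH (0.24), CHAC1 (-0.52) and PPP1R15A (-0.26). The part of this response in the level of GDF15 was not tested.

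Per kilobase of the longest coding transcript, vehicle levels in the first batch were highest for BAX at 76.7 ± 3.0 CPM per kb, followed by CDKN1A at 50.4 ± 3.8, TP53I3 at 42.3 ± 0.8, FDXR at 17.2 ± 2.0 and GDF15 at 9.85 ± 0.41 CPM per kb (SD, n = 3 each). MDM2 at 8.36, BBC3 at 4.56 and FAS at 3.82 CPM per kb came next, and SESN1 at 2.36 ± 0.18 and ZMAT3 at 2.32 ± 0.18 CPM per kb (SD, n = 3 each) differed by less than their spread. In the vehicle of the second batch the order was the same but for neighbours: TP53I3 stood at 42.9 and CDKN1A at 39.5 CPM per kb, and ZMAT3 at 2.80 and SESN1 at 1.99 CPM per kb. Within the first batch, ethanol extract at 500 µg/mL was the highest group for 9 genes and the lowest for BAX, without overlap with the next group. The 6 other groups overlapped with their neighbour in the order for most genes; the exceptions were GDF15 in water extract at 500 µg/mL, above the next group, CDKN1A in the same group, below the others, and BBC3 in ethanol extract at 20 µg/mL, the lowest group.

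The second batch asked the same of 8 single ingredients, and with all libraries 1 of 240 gene-by-group comparisons against vehicle passed the test (background 1.61%, of which 0.995% higher and 0.616% lower). MDM2 had 145, 120 and 123 CPM with gallic acid at 10 µM, a phenolic acid, against 102, 115 and 113 CPM with vehicle. The log2 change was 0.24 ± 0.08 (SE; edgeR adjusted p = 0.0325; background 13.5% for that group), with replicate 1 well above the other libraries. Replicates 1 and 3 of that group were low in mitochondrial counts, and the log2 change was 0.09 (adjusted p = 0.716) with replicate 1 left out of every group and 0.29 (0.268) with replicate 3 left out; leaving out any vehicle library also ended the call, with adjusted p from 0.0557 to 0.157. The common biological coefficient of variation was 0.212 in this batch, against 0.0444 in the first, and in simulated data for oleanolic acid at 10 µM the test recovered 4% of genes changed 1.25-fold, 38% at 1.5-fold, 70% at 2-fold and 100% at 4-fold, so smaller changes were not reliably detectable.

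**Figure D3:**
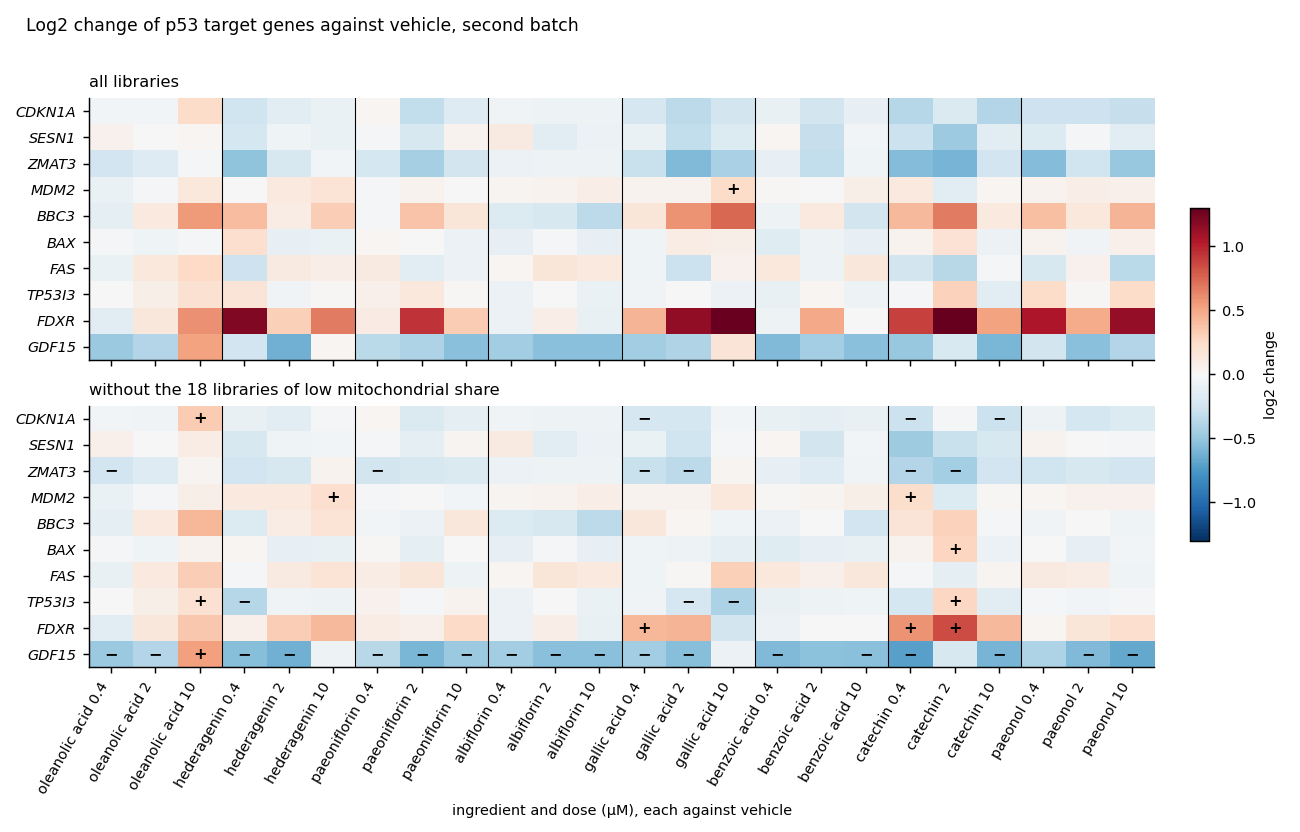
Log2 change against vehicle (colour scale) of the 10 p53 target genes (rows) in the 24 ingredient groups of the second batch (columns, doses in µM), with all libraries above and without the 18 libraries of low mitochondrial share below; plus and minus signs mark adjusted p under 0.05. With all libraries 1 field is marked, MDM2 with gallic acid at 10 µM, and without the 18 libraries 40 are, mostly GDF15, lower in 18 groups and higher with oleanolic acid at 10 µM.

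GDF15 gave the clearest response to an ingredient, with oleanolic acid, a pentacyclic triterpene. It had 24.2, 20.1 and 20.3 CPM with vehicle, 14.2, 16.6 and 15.5 CPM at 0.4 µM, 16.3, 18.1 and 15.4 CPM at 2 µM and 31.3, 31.2 and 30.7 CPM at 10 µM. The 10 µM libraries were the highest of the batch, and the lower doses lay below vehicle. At 10 µM against 0.4 µM the log2 change was 1.01 ± 0.17 (SE; edgeR adjusted p = 4.62e-05), the 1 call among 80 gene-by-ingredient comparisons of these doses (background 0.51%, and 2.47% for oleanolic acid). Against vehicle it was 0.53 ± 0.17 (SE; edgeR adjusted p = 0.0589), which missed the threshold, though DESeq2 gave an adjusted p of 0.0429. Vehicle libraries carry label numbers with a first digit that no ingredient shares, so differences from vehicle and differences that go with that digit cannot be told apart.

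**Figure D4:**
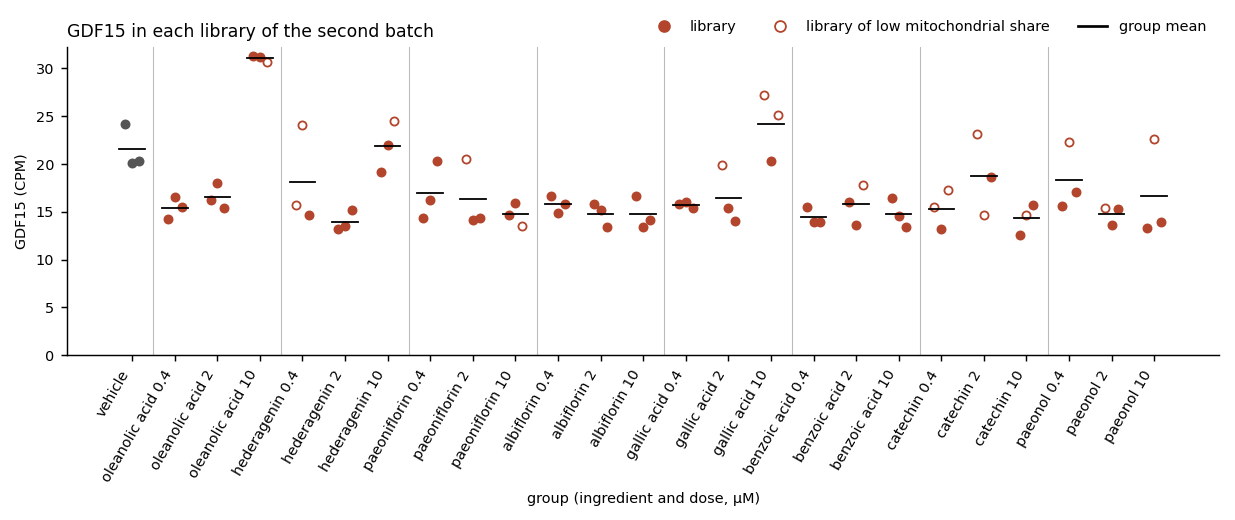
GDF15 (vertical axis, CPM) in each of the 75 libraries of the second batch by group (horizontal axis, doses in µM), with grey points for vehicle, open points for the 18 libraries of low mitochondrial share and a line at each group mean. Oleanolic acid at 10 µM stands highest with 3 libraries between 30.7 and 31.3 CPM, above vehicle at 20.1 to 24.2 CPM, and most other groups lie below vehicle.

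GDF15 was lower than vehicle in 21 of the 24 ingredient groups, with log2 changes from -0.62 to 0.53. The 3 groups at or above vehicle were oleanolic acid, gallic acid and hederagenin, each at 10 µM; gallic acid had 27.2, 20.4 and 25.1 CPM and hederagenin 19.2, 21.96 and 24.5 CPM. ZMAT3 was lower than vehicle in 24 of 24 groups (log2 change -0.60 to -0.03) and CDKN1A in 22 of 24 (-0.38 to 0.23), while FDXR was higher in 20 of 24 (-0.14 to 1.29), BBC3 in 17 of 24 (-0.34 to 0.74) and MDM2 in 19 of 24 (-0.14 to 0.24). BAX ran from -0.16 to 0.22, FAS from -0.36 to 0.26, SESN1 from -0.47 to 0.11 and TP53I3 from -0.15 to 0.30. Since the 24 comparisons share their vehicle libraries, these counts of direction are not independent, and shares over all genes were not set beside them. None of these changes other than that of MDM2 with gallic acid at 10 µM passed the test.

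Several of the 10 genes moved with the mitochondrial share. FDXR was at 53.5 to 167 CPM (median 91.02) in the 18 libraries of low share, against 32.4 to 69.1 CPM (median 41.1) in the other 57. BBC3 was at 7.70 to 17.01 CPM (median 10.9), against 4.62 to 10.1 CPM (median 6.65) in the others. ZMAT3 went the other way, with 9.26 to 23.5 CPM (median 17.5), against 18.3 to 28.1 CPM (median 23.1) in the others. The ranges overlap for all 3 genes. CDKN1A had a median of 69.9 CPM in the low-share libraries and 85.3 CPM in the others, FAS 6.27 and 7.76, SESN1 5.84 and 6.80, TP53I3 95.7 and 82.97, BAX 111 and 98.6, GDF15 20.2 and 15.4 and MDM2 116 and 113 CPM. Transcript GC content was 69.7% for BBC3, 64.3% for FDXR, 62.9% for GDF15, 58.9% for BAX and 58.4% for TP53I3, whose medians were higher in the low-share libraries, and 58.1% for CDKN1A, whose median was lower. It was 43.4% for SESN1, 39.5% for ZMAT3 and 39.1% for FAS, whose medians were lower, and 41.9% for MDM2, whose median was slightly higher. The part of the mitochondrial share or of GC content in these levels was not tested.

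**Figure D5:**
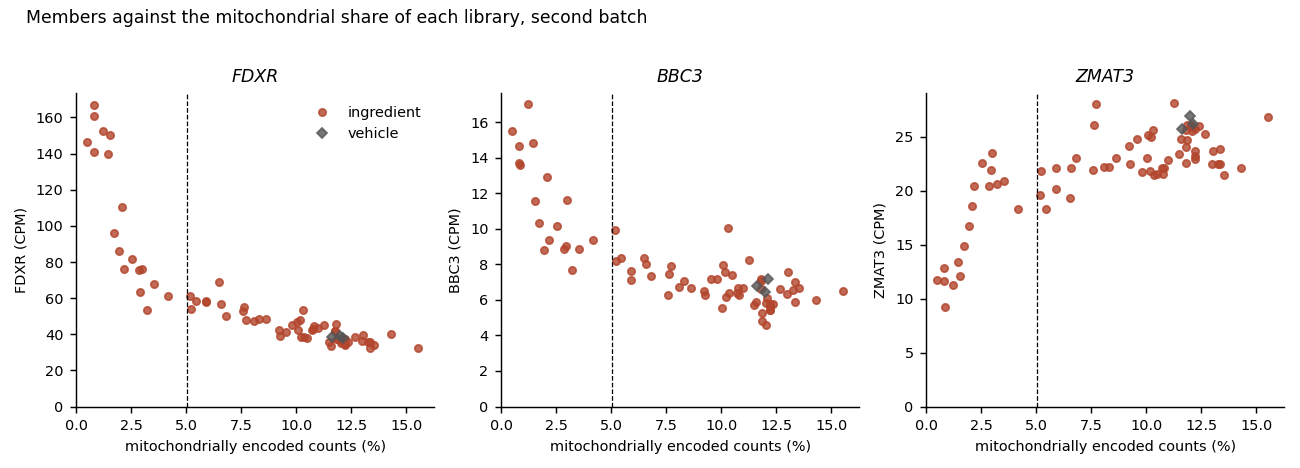
CPM of FDXR, BBC3 and ZMAT3 (vertical axes) against the share of counts from mitochondrially encoded genes in percent (horizontal axes) in the 75 libraries of the second batch, with diamonds for vehicle and a dashed line at 5.03%. Left of the line FDXR and BBC3 reach 167 and 17.01 CPM and ZMAT3 goes down to 9.26 CPM, while the vehicle libraries lie together at 11.6 to 12.1%.

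Without the 18 libraries, 40 of the 240 comparisons with vehicle passed the test, 10 higher and 30 lower (background 6.19%, 3.28% higher and 2.9% lower). GDF15 made up 19 of them: it fell in 18 groups, by up to 0.71 on the log2 scale, and rose with oleanolic acid at 10 µM (log2 change 0.54 ± 0.11, SE; edgeR adjusted p = 4.19e-04; background 19.2%). In the 2 oleanolic acid libraries left, CDKN1A had 112 and 114 CPM, against 89.3, 91.3 and 87.9 CPM with vehicle, and rose by 0.33 ± 0.07 on the log2 scale (SE; edgeR adjusted p = 8.86e-04). The low-share library of that group had 89.96 CPM, within the vehicle range. TP53I3 rose there as well (0.20, edgeR adjusted p = 0.034). ZMAT3 fell in 6 groups and FDXR rose in 3. Catechin at 0.4 and 2 µM, gallic acid at 10 µM and hederagenin at 0.4 µM were left with 1 library each, which the fit assumes to vary like the other groups. The mitochondrial shares of those libraries were 5.88, 6.51, 15.5 and 14.3%, in that order, against 11.6 to 12.1% in vehicle. Differences in share therefore remain in this setting. The MDM2 rise with gallic acid at 10 µM was 0.14 on the log2 scale without the low-share libraries.

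Between 10 and 0.4 µM of oleanolic acid, 7 of the 10 genes were higher at 10 µM without the low-share libraries (background 9.74%). The log2 changes were 1.02 for GDF15, 0.54 for BBC3, 0.50 for FDXR, 0.41 for FAS, 0.37 for CDKN1A, 0.28 for ZMAT3 and 0.20 for TP53I3. With all libraries the same genes had changes of 1.01, 0.66, 0.73, 0.35, 0.27, 0.22 and 0.21, of which that of GDF15 passed the test. At 10 µM, 2 libraries remained and at 0.4 µM all 3. The other dose difference called without these libraries was a fall of TP53I3 by 0.36 with gallic acid, whose 10 µM group had 1 library left. Without the 4 COL1A2-high libraries, 6 of the 240 comparisons with vehicle (background 2.75%) and 1 of the 80 dose comparisons (background 0.602%) passed the test.

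Of the other p53 targets, 7 of 35 rose and 3 fell with oleanolic acid at 10 µM against vehicle (background 4.45%). Their median log2 change was 0.04, with called changes in both directions, so the list as a whole had no common direction. The named genes were SESN2 at 30.4 CPM with oleanolic acid and 8.88 CPM with vehicle (log2 change 1.77), GADD45A at 23.8 and 10.9 CPM (1.13), BTG2 at 10.1 and 6.38 CPM (0.66) and APAF1 at 24.3 and 38.7 CPM (-0.67). SESN2, GADD45A and BTG2 are also known to respond to other stresses. With hederagenin at 10 µM 3 rose and 1 fell (background 2.42%, median -0.11): SESN2 (1.29), PMAIP1 (0.58), BTG2 (0.56) and CCNG1 (-0.32). With gallic acid at 10 µM, where 2 of 3 libraries were of low mitochondrial share, 2 rose and 6 fell (background 13.5%, median -0.11), among them GADD45A (1.06), BTG2 (0.59), ASCC3 (-0.63) and APAF1 (-0.58), and with paeoniflorin 1, BTG2, rose (0.51, background 0.191%). BTG2 was also called higher at 0.4 µM of oleanolic acid (0.57), paeonol (0.51), paeoniflorin (0.51), hederagenin (0.48) and catechin (0.43). All of these comparisons share the same vehicle libraries, so a low vehicle level of BTG2 and a response to these ingredients cannot be told apart. The integrated stress response genes rose in 14 of 19 cases with oleanolic acid at 10 µM (median log2 change 1.12), led by CHAC1 at 3.08, STC2 at 2.81, TRIB3 at 2.36 and DDIT3 at 2.04. They rose in 12 of 19 with hederagenin, led by CHAC1 at 2.70 and STC2 at 2.59 with TRIB3 at 1.83 and NUPR1 at 1.60, and in 4 of 19 with gallic acid, NUPR1 at 1.49, ATF4 at 0.85, PHGDH at 0.71 and DDIT4 at 0.64. Of the cell cycle list, BUB1 (-0.49), BUB1B (-0.40) and RRM2 (-0.40) fell with oleanolic acid, and BUB1 (-0.38) and BUB1B (-0.32) fell and RRM2 (0.19) rose with gallic acid. RRM2 also rose with paeoniflorin (0.28). Of the regulators, TP63 (-1.15) and ATR (-0.71) fell with gallic acid.

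Without the low-share libraries, the counts fell away with gallic acid and were as high or higher with oleanolic acid and hederagenin. With the 1 gallic acid library left at 10 µM, 0 of 35 other p53 targets, 0 of 20 cell cycle genes and 0 of 18 regulators passed the test (background 1.41%), and 1 of 19 stress genes rose. GADD45A then changed by 0.16, APAF1 by -0.14, NUPR1 by 0.15 and ATR by -0.27 on the log2 scale, each nearer 0 than with all libraries. The gallic acid library left had the highest mitochondrial share of the batch, 15.5%, against 11.6 to 12.1% in vehicle. Its share was thus not matched to vehicle either. With the 2 oleanolic acid libraries left, 7 of 35 other targets rose and 9 fell (background 19.2%), 16 of 19 stress genes rose and 12 of 20 cell cycle genes fell, with SESN2 at 1.80, GADD45A at 0.998, CHAC1 at 3.14 and BUB1 at -0.46 on the log2 scale. With the 2 hederagenin libraries left, 5 of 35 other targets rose and 9 fell (background 13.7%) and 15 of 19 stress genes rose, with SESN2 at 1.25 and CHAC1 at 2.60. With the 2 paeoniflorin libraries left, 1 other target, BTG2, rose (0.54) and 2 fell (background 3.51%).

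Related ingredients were compared at matched dose in 9 comparisons, with p-values adjusted over all genes within each, and 2 of 90 gene values passed the test (background 0.968%). Both were for gallic acid against benzoic acid at 10 µM (8.7% of genes called), acids that differ in the hydroxyl groups on the ring. BBC3 had 14.8, 6.51 and 12.9 CPM with gallic acid, against 7.05, 4.83 and 5.43 CPM with benzoic acid (log2 difference 0.98 ± 0.31, SE; edgeR adjusted p = 0.0385). GDF15 had 27.2, 20.4 and 25.1 CPM, against 16.4, 14.6 and 13.4 CPM with benzoic acid (0.71 ± 0.17, SE; edgeR adjusted p = 0.0109). The GDF15 groups did not overlap, whereas for BBC3 replicate 2 of gallic acid, the library without a low mitochondrial share, lay within the benzoic acid range. With that library alone left in the gallic acid group, the differences were 0.19 for BBC3 (adjusted p = 0.827) and 0.47 for GDF15 (0.133). With replicate 1 or 3 left out of every group, the BBC3 value was 0.92 or 0.84 (adjusted p = 0.31 and 0.448) and the GDF15 value 0.70 or 0.62 (0.156 and 0.442).

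Hederagenin, which carries an additional hydroxyl group on the skeleton of oleanolic acid, did not differ detectably from it at 10 µM in any of the 10 genes with all libraries. GDF15 had 19.2, 21.96 and 24.5 CPM with hederagenin, against 31.3, 31.2 and 30.7 CPM with oleanolic acid, without overlap. The log2 difference was -0.51, with a 95% interval from -0.84 to -0.17, and did not pass the adjustment over all genes. Over the 10 genes the 95% intervals ran from -0.87 to 1.03. Without the low-share libraries GDF15 and CDKN1A were lower with hederagenin (-0.60, edgeR adjusted p = 0.0137, and -0.36, 0.0216; background 0.863%), with 2 libraries in each group. The isomers paeoniflorin and albiflorin, both monoterpene glycosides, differed in 0 of 10 genes at each dose in edgeR, with intervals from -0.74 to 1.38 at 10 µM, from -0.84 to 1.81 at 2 µM and from -0.77 to 1.14 at 0.4 µM. Intervals of this width leave room for changes of more than 2-fold.

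Ingredients whose label numbers share a first digit were compared as well, since these comparisons do not use vehicle, and 2 of 120 gene values passed the test (background 0.364%), both GDF15 at 10 µM. With oleanolic acid it had 31.3, 31.2 and 30.7 CPM, against 14.7, 15.97 and 13.5 CPM with paeoniflorin (log2 difference 1.07 ± 0.17, SE; edgeR adjusted p = 1.17e-05; background 2.59%). With gallic acid it had 27.2, 20.4 and 25.1 CPM, against 12.6, 14.6 and 15.8 CPM with catechin (0.76 ± 0.17, SE; edgeR adjusted p = 0.0142; background 0.677%). No libraries overlapped in either comparison. Without the low-share libraries the first was 1.02 (edgeR adjusted p = 9.27e-08) and CDKN1A was higher with oleanolic acid too (0.45, adjusted p = 1.3e-04), while the second was 0.53 and did not pass the test (0.0834). The second also missed the threshold with replicate 1 (0.57, adjusted p = 0.284) or replicate 3 (0.81, 0.472) left out of every group.

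Outside the top dose of ethanol extract, the level of each gene was set beside the mean of the other 9 across libraries. Over the 18 libraries of the first batch without that group, Pearson's r of a gene's log2 CPM with the mean of the other 9 was -0.753 for CDKN1A, 0.406 for GDF15 and between -0.135 and 0.30 for the others. Over the 71 libraries of the second batch without those of high COL1A2, r was 0.666 for GDF15 and between -0.268 and 0.205 for the others, and over the 56 that also were not of low mitochondrial share 0.764 for GDF15, 0.523 for CDKN1A, 0.455 for BBC3, 0.428 for TP53I3 and between -0.03 and 0.273 for the others. The genes whose level most resembled the mean of all 10 were CTD-2083E4.4 (r = 0.888), ING4 (0.831), AS3MT (0.831), UGCG (0.829) and RP11-196G11.1 (0.828) over the 18 libraries. They were ZFAS1 (0.802), SLC1A5 (0.786), C6orf48 (0.773), TSC22D3 (0.773) and RABEPK (0.757) over the 71, and GAS5 (0.856), EIF1 (0.837), DDIT3 (0.837), CSRP1 (0.827) and ZFAS1 (0.824) over the 56. These correlations describe libraries that share groups, depth and RNA quality and carry no test.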

How the data were processed

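RNA sequencing libraries of A549 cells were prepared with the MGIEasy directional kit, per the labels' protocols. The authors deposited expected counts for each gene. The submitters' processing notes name RSEM 1.3.3, STAR, Trim Galore and FastQC, and the build GRCh38 (hg38). RSEM shares reads that match several genes, and 89.2% of the deposited values were whole. Counts were rounded to whole numbers. All 96 libraries had a group in the labels, and 0 of 96 replicate pairs held identical values.

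The batches were fitted separately, each with every group it holds, in edgeR 4.0.16 (R 4.3.3; TMM factors, filterByExpr, quasi-likelihood F-test, Benjamini-Hochberg over all genes tested, threshold 0.05), giving 16854 and 18324 genes tested and 66 comparisons. Every adjusted p comes from this test unless another is named, and intervals are at 95%. CPM values are scaled to the TMM-adjusted library size. The test was checked on simulated counts. Alternatives were DESeq2 1.42.0, RLE factors, no filter on low counts, the groups compared alone, a replicate block, scaling without mitochondrial genes, and leaving out single replicates, the libraries of low mitochondrial share or the 4 with COL1A2 above 100 CPM. The replicate numbers of the labels were not treated as pairs.

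The 10 genes, the lists and the library classes were chosen with earlier results of these data known. Genes of other lists were named by rule: at 500 µg/mL and 10 µM, up to 4 per list with the largest absolute log2 change among those past the threshold and without overlap of the libraries, plus MDM4, CDKN2A and COL1A2; 1 further gene of this rule is not reported here. Positions and transcript GC are from GENCODE v29 (the authors' release is not stated), and promoters are from RefSeq (GRCh38.p14), where all 10 genes matched by symbol.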

Additional observations from a re-analysis of the deposited data

Results flagged for a closer look

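The 10 genes differed between the extracts under the same dose: tested directly with edgeR at 500 µg/mL, ethanol minus water extract was 1.93 for BBC3, 1.34 for FAS, 1.23 for GDF15, 0.88 for SESN1, 0.85 for MDM2, 0.85 for CDKN1A, 0.79 for ZMAT3, 0.60 for FDXR, 0.30 for TP53I3 and -0.23 for BAX on the log2 scale. Of all genes tested, 32.7% were called higher and 33.3% lower in that comparison, so a difference was not particular to these genes. Against vehicle, CDKN1A was called in opposite directions, 0.47 higher with ethanol and 0.38 lower with water extract on the log2 scale.

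Among ingredients at 10 µM, a direct test with edgeR separated gallic acid from benzoic acid in BBC3 (log2 difference 0.98) and GDF15 (0.71), gallic acid from catechin in GDF15 (0.76), and oleanolic acid from paeoniflorin in GDF15 (1.07). Of all genes tested, 8.7%, 0.677% and 2.59% were called in these comparisons, in that order. In the gallic acid group 2 of 3 libraries were of low mitochondrial share, and its 3 differences did not pass the test without such libraries. The part of the mitochondrial share was not tested.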

How the results depend on the processing

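No value of the 10 genes that passed the test changed direction under any alternative. At 500 µg/mL, ethanol extract against vehicle, 20 µg/mL or water extract kept 10 calls in all settings run. Other counts of called genes moved. Ethanol extract at 100 µg/mL gave 1, and 3 without the filter on low counts or with a replicate block (0 to 2 leaving out single replicates). At 20 µg/mL ethanol extract gave 0 (0 to 1), and water extract 1, with 2 under DESeq2, no filter or a replicate block (0 to 3). Water extract gave 2 at 100 µg/mL (1 to 3), 1 at 500 against 20 µg/mL (from 0), and 3 at 500 µg/mL, with 4 without the filter or with a replicate block (3 to 4). For ingredients against vehicle, the count of 1 became 7 with DESeq2, 0 without the filter, 24 with the groups compared alone, 2 with a replicate block, 2 with mitochondrial genes left out, 6 without the COL1A2-high libraries and 40 without the libraries of low mitochondrial share (0 to 4 leaving out replicates). For 10 against 0.4 µM, 1 became 2 with DESeq2, 3 with the groups alone and 8 without the low-share libraries (1 to 2). For related ingredients, 2 became 1 without the filter, 0 with the groups alone and 4 without the low-share libraries (0 to 4). The first 2 calls, both higher, were lost without the low-share libraries. Those called instead were all lower, some of them in groups with 1 library left. For ingredients sharing a label digit, 2 became 1 with the groups alone and 5 without the low-share libraries (1 to 2). The causes were not tested, though groups compared alone share no estimate of spread with the other libraries. Of 660 gene values, the replicate block changed 5 calls, each newly past the threshold; the same replicate numbers deviated together (every correlation over 0.1) in 4 of 66 comparisons, so they were not read as pairs. RLE factors changed 0 of 660. The median total count was 23.7 M in the second batch and 23.2 M in the first; depth and spread were not varied to see which limits the calls. Leaving out the low-share or COL1A2-high libraries for the other gene lists was chosen after seeing the data.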
